A study of Mus musculus with 8 samples.

Results

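The detoxification genes of the mouse colon crypt were examined as a group for H3K9me3, the trimethylation of histone H3 at lysine 9 that marks heterochromatin. Members were taken by name alone: every H3K9me3 peak whose assigned gene is a cytochrome P450 (Cyp), a UDP-glucuronosyltransferase (Ugt), a sulfotransferase (Sult), a glutathione S-transferase (Gst), a carboxylesterase (Ces), an aldehyde dehydrogenase (Aldh), an aldo-keto reductase of family 1 (Akr1), a flavin monooxygenase (Fmo), an organic anion transporter (Slco) or an ABC transporter (Abc). This gave 173 peaks at 90 genes, out of 53761 peaks in all, of which 15680 overlap a gene or lie up to 5 kb from it and name 5543 genes. No filter was applied, so all 173 were tested.

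The 6 ChIP libraries came from whole colon crypts of male C57BL/6 mice, 3 from animals with the loxP-flanked Smarcad1 gene deleted by Vil-cre (KO) and 3 from wild-type controls (WT), and 1 input library was made per genotype. Vil-cre acts in the intestinal epithelium, so other cells in a crypt isolate keep the gene, and in such bulk samples fewer marked cells and less mark per cell cannot be told apart. The age of the animals is not given in the sources used here. Nothing states that libraries of equal number came from one day or litter, and the p-values below measure the spread between these libraries. Reads in each peak were given on a log2 scale after the authors had matched the libraries to a common distribution, which fixes the mean over all peaks at 4.16 in each library. The tissue could not be checked against expression markers, since the mark does not report expression, and no peak was assigned to Smarcad1, so the deletion was not checked here either. The peak at Vil1, the gene whose promoter drives the Cre, had 5.82, 4.92 and 5.04 in WT and 11.17, 10.84 and 10.84 in KO, and the inputs there held 133 WT and 1111 KO reads, which separates the libraries by genotype label. At a detoxification peak the median library held 17 to 23 reads, recovered from the steps of the values, and the 3 libraries of a genotype differed with a median SD of 0.26 in WT and 0.31 in KO.

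Detoxification runs in stages. First, enzymes such as the P450s, flavin monooxygenases, aldehyde dehydrogenases and aldo-keto reductases oxidise or reduce a compound, while carboxylesterases hydrolyse it. These steps expose or create a reactive group. Conjugating enzymes then attach glucuronate, sulfate or glutathione, and membrane transporters take compounds up or pump the products out. Many of these genes arose by tandem duplication and lie in clusters, of which only some members are used in the gut while others serve the liver, the adrenal gland or the gonads. Repressed gene clusters and repeats are places where H3K9me3 is known to accumulate, and Smarcad1 is a chromatin remodeller linked to the maintenance of this mark.

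The sequences below are those that the results turn on. The first is the centre of the peak near Aldh1l2, where H3K9me3 was lower in KO, and the second is the narrow peak at Akr1c14 that had the highest WT level per kb of the group. The others are the 250 bases ahead of the start of Ugt1a5, Sult2a4, Sult2a6 and Slco1a6. These 4 RefSeq promoters share bases with a detoxification peak. They were found among 269 RefSeq promoters of genes of these families, of which not all were searched for overlap. Bases are from GRCm38 for the peaks and from RefSeq on GRCm38.p6 for the promoters, written 5′ to 3′ in lower case, with capitals for CpG, the dinucleotide that DNA methylation acts on.
Aldh1l2 peak centre, chr10:83484226-83484525, plus strand: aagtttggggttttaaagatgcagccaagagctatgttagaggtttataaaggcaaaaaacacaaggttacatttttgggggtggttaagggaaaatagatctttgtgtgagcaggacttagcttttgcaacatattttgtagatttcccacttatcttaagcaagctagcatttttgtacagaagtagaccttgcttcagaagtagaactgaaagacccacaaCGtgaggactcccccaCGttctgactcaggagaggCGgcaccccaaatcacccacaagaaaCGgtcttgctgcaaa
Akr1c14 narrow peak, chr13:4093351-4093650, plus strand: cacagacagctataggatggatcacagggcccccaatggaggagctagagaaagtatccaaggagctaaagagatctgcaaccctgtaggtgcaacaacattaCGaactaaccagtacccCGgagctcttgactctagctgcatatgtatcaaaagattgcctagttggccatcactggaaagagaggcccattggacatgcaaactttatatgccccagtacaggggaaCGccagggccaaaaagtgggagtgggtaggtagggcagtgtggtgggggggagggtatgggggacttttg
Ugt1a5 promoter, chr1:88165762-88166011, plus strand: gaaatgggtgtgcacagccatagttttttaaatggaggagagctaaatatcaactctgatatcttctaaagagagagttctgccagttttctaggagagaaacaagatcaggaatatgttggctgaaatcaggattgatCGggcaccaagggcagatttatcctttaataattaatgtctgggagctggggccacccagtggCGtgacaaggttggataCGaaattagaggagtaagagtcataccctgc
Sult2a4 promoter, chr7:13989589-13989838, minus strand: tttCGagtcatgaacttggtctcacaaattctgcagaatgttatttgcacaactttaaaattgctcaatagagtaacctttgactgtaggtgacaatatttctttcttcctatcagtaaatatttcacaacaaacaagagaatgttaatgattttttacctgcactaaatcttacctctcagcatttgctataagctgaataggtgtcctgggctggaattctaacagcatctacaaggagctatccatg
Sult2a6 promoter, chr7:14254871-14255120, minus strand: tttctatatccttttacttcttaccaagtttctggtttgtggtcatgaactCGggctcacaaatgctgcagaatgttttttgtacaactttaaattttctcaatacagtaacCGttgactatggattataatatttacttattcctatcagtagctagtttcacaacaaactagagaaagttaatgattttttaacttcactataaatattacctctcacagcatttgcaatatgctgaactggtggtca
Slco1a6 promoter, chr6:142186150-142186399, minus strand: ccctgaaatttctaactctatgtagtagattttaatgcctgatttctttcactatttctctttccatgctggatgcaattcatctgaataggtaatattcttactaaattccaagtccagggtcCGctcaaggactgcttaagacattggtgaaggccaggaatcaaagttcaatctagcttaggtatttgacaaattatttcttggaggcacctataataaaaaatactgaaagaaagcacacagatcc

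Peaks covered the Ugt1a5 and Sult2a6 stretches whole, 238 of the 250 bases at Sult2a4 and 49 at Slco1a6. CpG was sparse in them, with 3 at Ugt1a5, 2 at Sult2a6 and 1 each at Sult2a4 and Slco1a6. Over the whole RefSeq windows, which run from 250 bases before a start to 50 after it, the median promoter of these families held 3 CpG and the median of all 32851 promoters held 7. The Sult2a4 and Sult2a6 stretches were 63.1% identical in a global alignment. The core of the xenobiotic response element, TNGCGTG on either strand, which the aryl hydrocarbon receptor binds, occurred once in the Ugt1a5 window and in none of the other 3 windows, against 2.97% of the promoters of these families and 5.07% of all promoters. The antioxidant response element core, TGACNNNGC on either strand, was in none of the 4, against 8.92% and 12.4%. At 70 of the 90 genes with a peak a promoter was in the RefSeq table, and the remaining genes were not examined for promoter sequence. Overlaps on the chromosome of Aldh7a1 were not counted, so the 4 promoters may not be all that share bases with a peak.

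H3K9me3 peaks were unevenly spread over the families. In GENCODE vM21, 89 of the 291 protein-coding genes of these families had a peak (30.6%), beside 21.0% of all protein-coding genes. The sulfotransferases had the highest share, 10 of 21 genes, followed by the organic anion transporters with 6 of 14, the ABC transporters with 20 of 50 and the P450s with 37 of 100. The aldo-keto reductases had 5 of 16, the flavin monooxygenases 2 of 7 and the aldehyde dehydrogenases 4 of 21. Among the other conjugating enzymes, 2 of 22 glucuronosyltransferase genes and 1 of 21 glutathione S-transferase genes, Gstp1, had a peak assigned to them. Of the carboxylesterases 2 of 19 had a peak. The Ugt1a genes share their last exons and are nested in 1 locus, where the deposited table gives all peaks to Ugt1a10. The peak at chr1:88202551-88206600 lies within the annotated spans of all Ugt1a genes there except Ugt1a1. The count for the glucuronosyltransferases is therefore a minimum, and does not show that few of them are marked. The 2 peaks at Slco6b1 have a gene identifier that is not in GENCODE vM21, and they stay in all counts of peaks.

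The peaks were clustered as the genes are. Joining peaks that lie up to 500 kb apart gave 51 loci on 18 chromosomes. Of these, 28 held a single peak and 11 held 5 or more peaks, together 113 of the 173. The densest was the Sult2a cluster on chromosome 7, with 36 peaks at 6 genes within 583 kb, and Sult2a4 alone held 13 of them. Next came the Cyp2c cluster on chromosome 19 with 15 peaks at 7 genes, the Slco1a cluster on chromosome 6 with 12 peaks, Abcc9 included, and the Ugt1 locus with 9. By position, 94 peaks lay in introns, 25 reached an exon, 4 covered the start of an annotated transcript of their gene, which at 3 of them was also the start of the gene, 18 lay ahead of a gene and 30 beyond its end.

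The level in WT was compared per kb of peak, as log2 reads minus log2 of the width, since wider peaks hold more reads. The mean over the 173 peaks was 4.11 ± 0.01 (SD, n = 3 libraries), beside 4.00 over all peaks. The aldehyde dehydrogenases were highest with 4.34 ± 0.06, then the aldo-keto reductases with 4.27 ± 0.04 and the glucuronosyltransferases with 4.27 ± 0.13. The flavin monooxygenases had 4.20 ± 0.19, the P450s 4.18 ± 0.06 and the ABC transporters 4.09 ± 0.05. The carboxylesterases had 4.01 ± 0.09, the organic anion transporters 4.00 ± 0.07, the sulfotransferases 3.98 ± 0.05 and the single Gstp1 peak 3.98 ± 0.30. Each family differed from the next in this order by less than the sum of their SDs. These SDs measure the spread between matched library means, not between the peaks of a family. Differences between families were not tested. Within a family the peaks spread more than the families did, from 3.59 to 4.89 among the P450s and from 3.57 to 4.68 among the sulfotransferases.

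**Figure D1:**
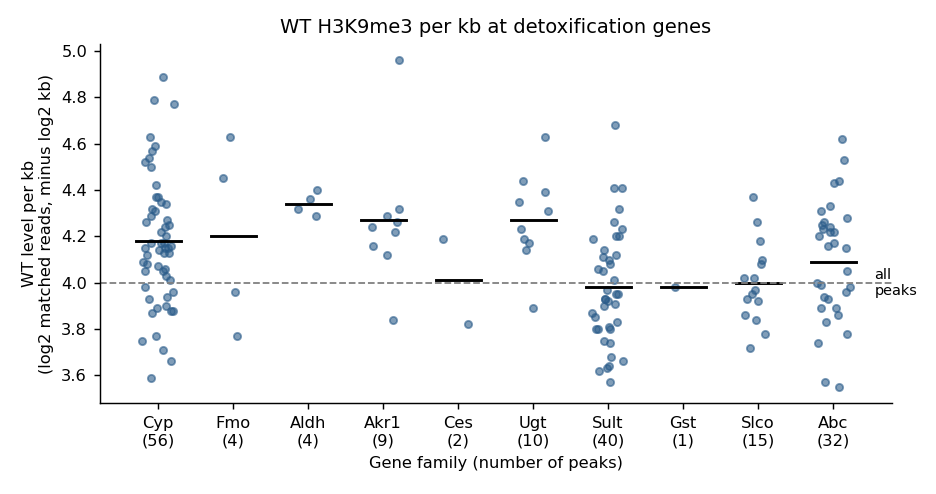
WT H3K9me3 per kb at each detoxification peak (points, mean of 3 WT libraries, log2 matched reads minus log2 of the width in kb), by gene family in order of role. Black bars are family means, and the dashed line is the mean over all peaks, 4.00. The Cyp, Ugt, Aldh and Akr1 means lie between 4.18 and 4.34, and the sulfotransferase mean, 3.98, lies on the line.

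The peak of highest WT level per kb was narrow. This 300-bp peak beyond the end of Akr1c14, a hydroxysteroid dehydrogenase, had 4.96, from 10, 9 and 10 WT reads and 2 WT input reads. It is soft-masked as repeat over 100% of its bases. It directly abuts the 3750-bp peak at chr13:4093651-4097400, which is 97.4% soft-masked and had 4.12. Over the whole table, peaks below 900 bp averaged 4.12 per kb in WT, beside 4.00 over all peaks. How far width and few reads set such ranks was not tested. A wide peak was the highest P450, the 5250-bp peak beyond the end of Cyp3a41a at chr5:145686601-145691850, with 4.89. It shares sequence with the 1650-bp peak at Cyp3a41b, all of which aligned to it at 97.7% identity, so the level of this pair is uncertain. Among the other families, the highest were the Ugt1a10 peak at chr1:88202551-88206600 with 4.63, the peak ahead of Abcb4 with 4.62, Aldh1l2 with 4.40, Slco1a5 with 4.37 and Ces5a with 4.19. The highest peak of the sulfotransferases lay in Sult2a1, with 4.68. It rested on 7, 9 and 8 WT reads, and the Slco1a5 peak on 11, 14 and 6.

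The question the design poses is whether H3K9me3 at these genes differs once Smarcad1 is deleted in the epithelium. Over the 173 peaks the mean was 4.33, 4.31 and 4.32 in WT and 4.24, 4.21 and 4.09 in KO. All 3 KO libraries lay below all 3 WT libraries, by 0.14 on average, while over all peaks near a gene the difference was -0.01. The median log2 fold change was -0.11, and 105 peaks were lower and 68 higher (60.7% lower, beside 52.3% of all peaks near a gene). The SD between library means was 0.01 in WT and 0.08 in KO, while the median SE of a single peak was 0.29. No test was made of the mean because the members were chosen with results known. When the unscaled input of the same genotype was subtracted, the mean difference over the group was -0.04, while the same step moved the mean over all peaks near a gene from -0.01 to 0.08. The median went from -0.11 to -0.02 in the group and from 0.00 to 0.09 over all peaks.

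Peak by peak, 1 detoxification peak passed an adjusted p of 0.05 (limma, Benjamini-Hochberg over all peaks), and it was lower in KO. This is 0.578% of the group, beside 0.863% of all peaks and 1.42% of peaks near a gene called lower. None was called higher, beside 0.796% of all peaks and 2.49% of peaks near a gene, and at an unadjusted p under 0.05 limma gave 1 higher peak. limma voom on recovered reads called 2 lower and 0 higher, with 1.18% of the group lower beside 0.605% of all peaks it tested. limma called 3 lower without KO replicate 1, 1.73% beside 0.843% of all peaks, and 3 lower without KO replicate 3, 1.73% beside 0.705%. At that unadjusted threshold 22 were lower, 12.7% beside 6.06% of all peaks and 8.85% of peaks near a gene, and 1 was higher, 0.578% beside 4.52% and 6.65%. The 3 KO values lay below the 3 WT values at 25 peaks, 14.5% beside 8.42% of all peaks and 11.4% of peaks near a gene. They lay above them at 3 peaks, 1.73% beside 7.2% and 8.61%. These shares were not tested.

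**Figure D2:**
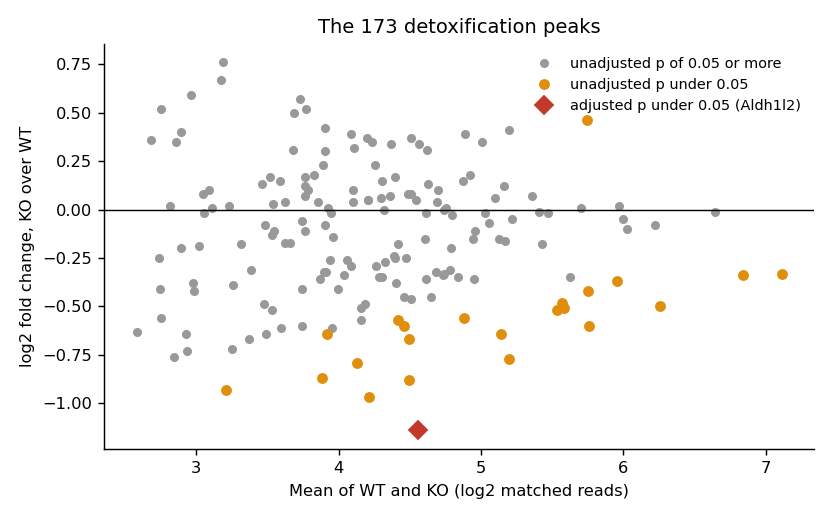
log2 fold change of KO over WT against the mean level (log2 matched reads) of the 173 detoxification peaks. Orange points have an unadjusted p under 0.05, of which 1 lies above 0, and the red diamond is the Aldh1l2 peak, the 1 peak with an adjusted p under 0.05, at -1.14.

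The called peak lies 2250 bp beyond the end of Aldh1l2, at chr10:83483551-83485200 (1650 bp), outside the gene, which runs from 83534140 to 83487450 on the minus strand. Aldh1l2 encodes the mitochondrial 10-formyltetrahydrofolate dehydrogenase, an enzyme of folate metabolism that shares the aldehyde dehydrogenase fold. WT libraries gave 5.26, 5.19 and 4.92 and KO libraries 4.25, 3.84 and 3.86, with no overlap. The peak fell by 1.14 on the log2 scale (SE 0.25, adjusted p = 0.00342 by limma). Recovered reads were 34, 41 and 35 in WT and 16, 14 and 16 in KO, and the inputs held 16 WT and 15 KO reads. The call rests on the variance prior: with 1 common prior for peaks of every level, the adjusted p of limma was 0.133. The centre of the peak, printed above, holds 4 CpG, and 69.0% of the whole peak is soft-masked as repeat.

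The peaks next in order did not pass the threshold. Ahead of Abcb4, which encodes the canalicular phospholipid flippase of the liver, the peak at chr5:8889751-8891700 had 5.64, 5.38 and 5.72 in WT and 5.41, 4.48 and 4.55 in KO. One KO library lay within the WT values, and the difference was -0.77 (SE 0.22, adjusted p = 0.0535 by limma). With voom on recovered reads its adjusted p was 0.0302. Ahead of Cyp11b2, the aldosterone synthase of the adrenal gland, the peak at chr15:74860651-74863350 had 6.38, 5.79 and 6.01 in WT and 5.37, 5.33 and 5.67 in KO, a difference of -0.60 (SE 0.18, adjusted p = 0.0749 by limma). Its values did not overlap, and neither did those of Abcc1, an exporter of glutathione conjugates that is present in gut epithelium. The Abcc1 peak, in an intron at chr16:14407351-14408550, had 4.87, 4.84 and 4.38 in WT and 3.95, 3.02 and 4.20 in KO, a difference of -0.97 (SE 0.29, adjusted p = 0.0795 by limma). The Abcb4, Cyp11b2 and Abcc1 peaks passed with adjusted p-values of 0.0303, 0.0422 and 0.0488 when peaks averaging below 4 on the log2 scale were left out of the test.

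**Figure D3:**
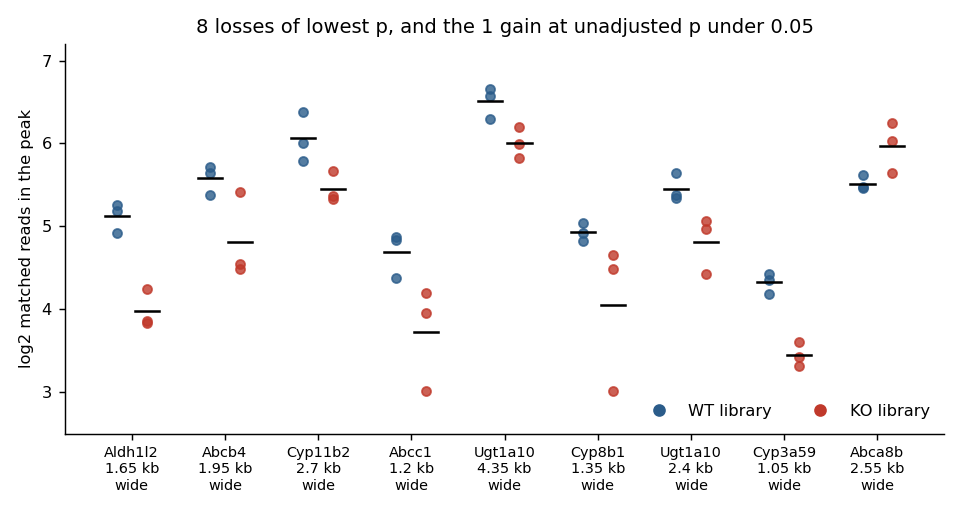
log2 matched reads in each library at the 8 detoxification peaks of lowest p among those lower in KO, in order of p, and at the 1 higher peak with an unadjusted p under 0.05. Points are libraries (blue WT, red KO) and bars their means. At Aldh1l2 the lowest WT value is 4.92 and the highest KO value 4.25, while at Abcb4 the KO value of 5.41 lies within the WT values.

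Among the oxidising enzymes, the P450s held the largest set, 56 peaks at 37 genes. Their mean was 4.35, 4.29 and 4.41 in WT and 4.22, 4.23 and 4.05 in KO, a difference of -0.18 without overlap of libraries. Of the 56 peaks, 39 were lower and 17 higher, and neither limma nor voom called any. At an unadjusted p under 0.05 by limma, 10 were lower and 0 higher. Of all peaks near a gene, 8.85% were lower and 6.65% higher at that threshold. Counting only P450 peaks that overlap their gene left a difference of -0.07. Beside Cyp11b2, the largest differences without overlap were ahead of Cyp8b1, the sterol 12-alpha-hydroxylase of bile acid synthesis, and in Cyp3a59, a member of the drug-metabolising Cyp3a family. Cyp8b1 had 4.82, 4.92 and 5.04 in WT and 4.66, 4.48 and 3.02 in KO (-0.88, SE 0.29, adjusted p = 0.133 by limma), and without KO replicate 3, the lowest, the difference was -0.36. Its inputs were unequal, with 6 reads in WT and 18 in KO. Cyp3a59 had 4.35, 4.43 and 4.19 in WT and 3.42, 3.61 and 3.31 in KO (-0.87, SE 0.30, adjusted p = 0.18 by limma).

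The P450 clusters differed in their values. In the Cyp2c cluster, whose members oxidise drugs and fatty acids, 11 of 15 peaks were lower and the mean difference was -0.23. The lower peaks of this cluster included Cyp2c67, with an intronic peak of 4.70, 4.96 and 4.84 in WT and 4.51, 4.20 and 3.77 in KO, and the peak beyond Cyp2c65, which is expressed in gut, with 5.60, 5.84 and 5.97 in WT and 5.49, 5.45 and 5.41 in KO. Neither passed, with limma adjusted p-values of 0.246 and 0.485. All 4 peaks in Cyp2c66 were higher, and the one at chr19:39156451-39157650 was the 1 P450 peak with all KO values above the WT values, with 3.88, 4.17 and 3.97 in WT and 4.43, 4.35 and 4.35 in KO (0.37, SE 0.27, adjusted p = 0.696 by limma). The Cyp3a cluster had 4 of 5 peaks lower and a mean difference of -0.36, in which the uncertain Cyp3a41a and Cyp3a41b pair took part with -0.33 and -0.20. The Cyp2j cluster had -0.09, the Cyp4a and Cyp4b1 cluster 0.09, and the 5 intronic peaks of Cyp39a1, an oxysterol hydroxylase, ranged from -0.34 to 0.32.

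The gut-expressed P450s on the list of enzymes and transporters known from intestinal epithelium gave no call. Cyp2b10, a target of the xenobiotic receptor CAR, had a difference of 0.01, the 2 peaks of Cyp4b1 had -0.17 and 0.04, and the 3 of Cyp7b1, which hydroxylates oxysterols, had 0.36, -0.25 and 0.08. Of the 76 genes on that list, 16 had a peak, with 22 peaks in all. Of these, 11 peaks were lower and 11 higher, the mean difference was -0.09, and neither limma nor voom called any. At an unadjusted p under 0.05 by limma, 2 of the 22 were lower (Abcc1 and Ugt2b34) and 0 higher. Of all peaks near a gene, 8.85% were lower and 6.65% higher at that threshold.

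The other enzymes of the first stage had few peaks. All 4 aldehyde dehydrogenase peaks were lower, and the family mean was 4.99, 5.05 and 4.92 in WT and 4.42, 4.51 and 4.39 in KO. Aldh1l2 was the largest of these differences. The others, Aldh1a2, which makes retinoic acid, Aldh1l1 and Aldh7a1, had -0.33, -0.36 and -0.36, with overlapping libraries and no call. The aldo-keto reductases had 4.75, 4.74 and 4.81 in WT and 4.33, 4.59 and 4.56 in KO, with 7 of 9 peaks lower. Their mean difference, -0.28, was -0.10 over peaks that overlap their gene and 0.06 with the input subtracted, beside 0.08 for all peaks near a gene. Their largest difference was inside Akr1b10, which reduces retinaldehyde, at chr6:34390501-34391700, where WT had 4.35, 4.96 and 4.26 and KO had 3.71, 3.61 and 3.86 (-0.79, SE 0.29, adjusted p = 0.203 by limma). Both peaks ahead of Akr1c21 were lower without overlap, with -0.37 and -0.60, while the 3 wider peaks of Akr1c14, on the same chromosome 13 cluster, had 0.06, -0.08 and -0.05. The narrow Akr1c14 peak printed above had 3.52, 3.04 and 3.11 in WT and 1.48, 3.49 and 2.42 in KO, which overlap. The flavin monooxygenases had 2 peaks lower and 2 higher, with 0.34 at Fmo1, and the 2 carboxylesterase peaks had 0.59 at Ces1g, an intestinal and hepatic lipid esterase, and -0.35 at Ces5a.

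**Figure D4:**
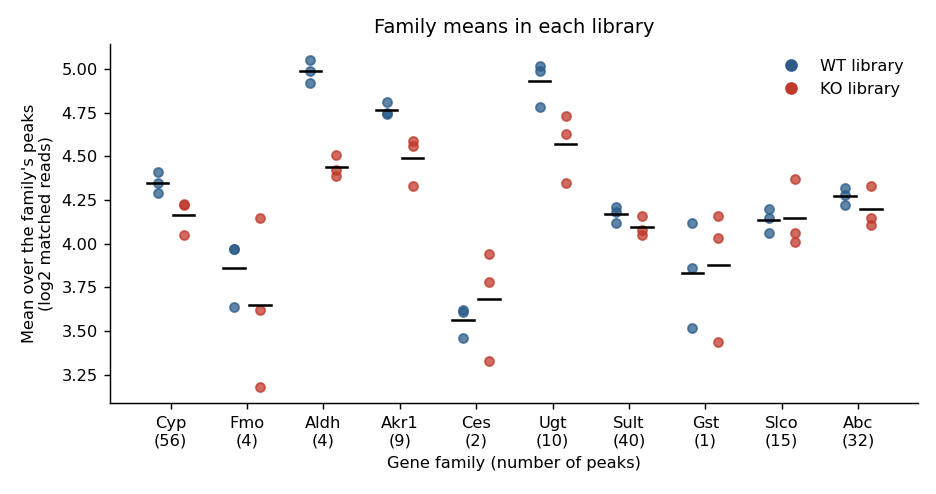
Mean of log2 matched reads over the peaks of each family in each library (blue WT, red KO), families in order of role with their number of peaks, black bars the mean of 3 libraries. The KO libraries lie below the WT libraries without overlap for Cyp, Aldh, Akr1 and Ugt, and overlap them for the other 6 families.

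Of the conjugating enzymes, the glucuronosyltransferases had lower means in KO, with 4.78, 4.99 and 5.02 in WT and 4.73, 4.63 and 4.35 in KO, a difference of -0.36 over 10 peaks, of which 9 were lower. None was called by limma or voom, and 3 lower and 0 higher peaks had an unadjusted p under 0.05 by limma. At that threshold 8.85% of all peaks near a gene were lower and 6.65% higher. The Ugt1 locus holds 9 of the 10 glucuronosyltransferase peaks. It carries a row of alternative first exons, each with its own promoter, joined to shared last exons, so that a peak given to Ugt1a10 can lie at the start of another isoform. The peak at chr1:88165201-88167600 covers the start of Ugt1a5, whose promoter is printed above, and had 5.34, 5.64 and 5.38 in WT and 4.97, 4.42 and 5.06 in KO (-0.64, SE 0.21, adjusted p = 0.142 by limma). The next, at chr1:88168501-88172850, 2.49 kb beyond that start, had 6.66, 6.30 and 6.57 in WT and 6.20, 5.99 and 5.83 in KO (-0.50, SE 0.16, adjusted p = 0.1 by limma). Neither pair of groups overlapped. Further along, the peak 1.95 kb beyond the start of Ugt1a2, at chr1:88202551-88206600, had 6.78, 6.45 and 6.71 in WT and 6.81, 6.61 and 6.48 in KO, a difference of -0.01. The 5 peaks from the Ugt1a9 start to just beyond the Ugt1a5 start ranged from -0.72 to -0.35, and the 4 peaks further along from -0.18 to 0.10, and the difference between these sets was not tested. Ugt2b34, the 1 gene with a peak outside this locus, had 4.93, 5.50 and 5.04 in WT and 4.58, 4.86 and 4.35 in KO (-0.56, SE 0.23, adjusted p = 0.304 by limma).

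The sulfotransferases had 40 peaks with means of 4.21, 4.18 and 4.12 in WT and 4.08, 4.16 and 4.05 in KO. The difference, -0.08, was 0.16 with the input subtracted, beside the 0.08 of all peaks near a gene. Of the peaks, 22 were lower and 18 higher. None was called by limma or voom, and 2 lower and 0 higher had an unadjusted p under 0.05 by limma. At that threshold 8.85% of all peaks near a gene were lower and 6.65% higher. In the Sult2a cluster, whose enzymes sulfate steroids and bile acids, 19 of 36 peaks were lower and the mean difference was -0.06. The widest peak of the whole group, 6900 bp in an intron of Sult2a4 at chr7:13968601-13975500, had 7.08, 6.93 and 7.04 in WT and 6.59, 6.62 and 6.79 in KO, without overlap (-0.34, SE 0.13, adjusted p = 0.274 by limma). The other 12 peaks of Sult2a4 ranged from -0.45 to 0.34. The largest difference in the family was a 600-bp peak in Sult2a6 at chr7:14226751-14227350, with 4.09, 3.56 and 3.38 in WT and 2.62, 3.19 and 2.42 in KO (-0.93, SE 0.41, adjusted p = 0.364 by limma), where few reads were counted. The peaks over the printed promoters had -0.26 at Sult2a4 and 0.10 at Sult2a6, both with overlapping libraries. The 6 peaks of Sult2a3 ranged from -0.13 to 0.41. Outside the cluster, Sult1c2 had -0.45, Sult2b1, the cholesterol sulfotransferase of epithelia, -0.52, Sult3a1 0.02 and Sult6b1 -0.02. The single Gstp1 peak, of the family that conjugates glutathione, had 3.52, 3.86 and 4.12 in WT and 4.16, 4.03 and 3.44 in KO.

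**Figure D5:**
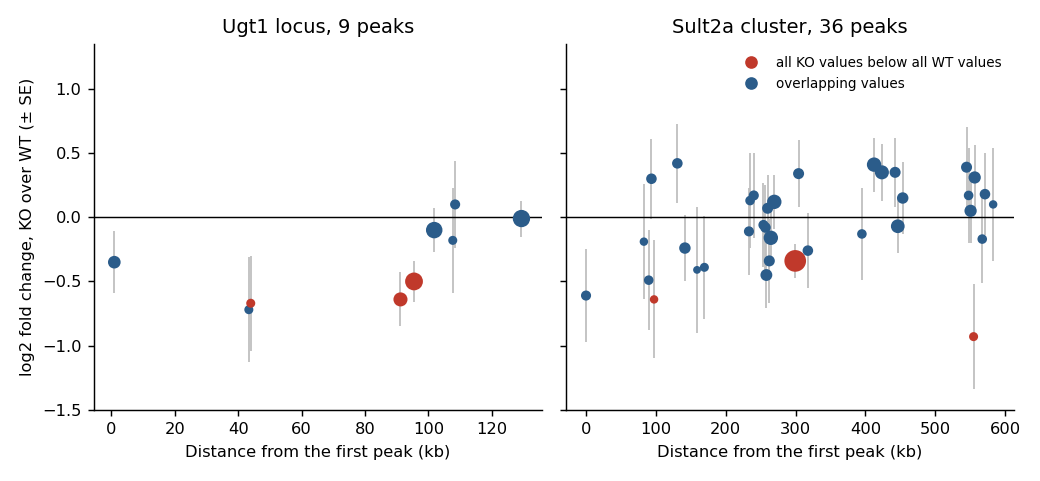
log2 fold change of KO over WT (± SE from limma) at the peaks of the Ugt1 locus (9 peaks) and the Sult2a cluster (36 peaks), by distance from the start of the first peak in kb, with larger points for wider peaks and red for peaks whose KO values all lie below the WT values. Such peaks number 3 in the Ugt1 locus (33.3%) and 3 in the Sult2a cluster (8.33%), beside 11.4% of peaks near a gene and 8.42% of all peaks. The Ugt1 peaks furthest along the locus lie near 0.

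The means of both transporter families overlapped between KO and WT libraries. The organic anion transporters, which take bile acids, steroids and drugs into cells, had 4.20, 4.15 and 4.06 in WT and 4.37, 4.01 and 4.06 in KO. None of their 15 peaks had an unadjusted p under 0.05 by limma or a call by voom, 5 were lower and 10 higher, and the 5 peaks of Slco1a6 ranged from -0.41 to 0.15. The printed Slco1a6 promoter lies ahead of a RefSeq start at 142186149, inside the GENCODE gene, which starts at 142208521. The intronic peak that reaches this stretch had 0.12, and the peak over the GENCODE start had 0.15. Slco2a1, the prostaglandin transporter, had 0.10. The ABC transporters had 4.28, 4.32 and 4.22 in WT and 4.33, 4.11 and 4.15 in KO, with 16 of 32 peaks lower and 16 higher. None was called by limma, while voom called Abcb4. By limma 3 lower and 1 higher had an unadjusted p under 0.05. At that threshold 8.85% of all peaks near a gene were lower and 6.65% higher. Besides Abcb4 and Abcc1, the peak ahead of Abcg1, a cholesterol exporter, was lower without overlap, with 5.91, 5.64 and 5.82 in WT and 5.19, 5.30 and 5.34 in KO (-0.52, SE 0.18, adjusted p = 0.191 by limma). Abcg2, the breast cancer resistance protein of the gut lumen, had 0.31 with overlapping libraries.

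The other 2 of the 3 peaks with all KO values above the WT values lay at ABC transporters, both lipid transporters of the Abca type. The peak in Abca8b at chr11:109971151-109973700 had 5.46, 5.47 and 5.62 in WT and 6.03, 6.25 and 5.64 in KO (0.46, SE 0.18, unadjusted p = 0.0141, adjusted p = 0.278 by limma), and was the 1 peak of the group higher at that unadjusted threshold. It lies among 8 peaks of the Abca6, Abca8a, Abca8b and Abca9 cluster, whose mean difference was 0.01. Abca1, the exporter that loads cholesterol onto lipoproteins, had 3.52, 3.56 and 3.25 in WT and 4.16, 3.84 and 4.04 in KO (0.57, SE 0.32, adjusted p = 0.561 by limma), with 14 input reads in WT and 5 in KO. The 6 peaks of Abca13 ranged from -0.64 to 0.67.

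The differences varied with position relative to the gene. Peaks were split into those outside and those overlapping their gene by the deposited assignment. It counts as outside 1 Cyp19a1 peak that is intronic in GENCODE. The 49 peaks outside their gene had 4.50, 4.51 and 4.51 in WT and 4.27, 4.32 and 4.20 in KO. Their difference was -0.24, and 12 of them were lower without overlap and 0 higher. The 124 peaks that overlap their gene had a difference of -0.10, with 13 lower and 3 higher without overlap. Among all peaks near a gene, those outside had -0.09 and those overlapping 0.01, so the same order held in the whole table. There, 13.8% of the peaks outside a gene were lower without overlap and 5.2% higher, against 10.8% and 9.36% of those overlapping one, and in the group the shares were 24.5% and 0% outside and 10.5% and 2.42% overlapping. Peaks ahead of a gene had -0.33, peaks beyond its end -0.19 and peaks reaching an exon 0.04. By width, the 19 peaks of 2500 bp or more had 15 lower (78.9%), with 9 lower and 1 higher without overlap. Of the 5426 peaks of that width in the whole table, 49.4% were lower, 13.7% lower without overlap and 12.0% higher without overlap. Base composition was like that of the whole table, with a median GC content of 41.9% in both and 7.22 CpG per kb beside 6.67, while 43.5% of bases at the median detoxification peak were soft-masked beside 37.8%.

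Genes that act with these families but do not carry their names were read from a list of regulators and partner enzymes. Of the 73 genes listed, 19 had a peak, 27 peaks in all, of which 3 were lower and 1 higher at an adjusted p under 0.05 by limma. The calls over the whole table were 0.863% lower and 0.796% higher, and over peaks near a gene 1.42% and 2.49%. The wider of 2 peaks at Gstz1, maleylacetoacetate isomerase, a glutathione transferase outside the name rule, had 6.82, 6.63 and 6.87 in WT and 5.87, 5.56 and 5.51 in KO (-1.13, SE 0.16, adjusted p = 1.42e-06). Of the 2 peaks at the peptide transporter Slc15a1, the wider fell by 0.82 (SE 0.15, adjusted p = 0.00045). The second peaks of Gstz1 and Slc15a1 had -0.71 (adjusted p = 0.163) and -0.76 (adjusted p = 0.309). Of the 2 peaks at the cation transporter Slc22a2, 1 fell by 0.97 (SE 0.25, adjusted p = 0.0277), and the other, at chr17:12624451-12626700, had -0.04 (SE 0.22, adjusted p = 0.971). The bile acid transporter Slc10a2 rose by 0.87 (SE 0.19, adjusted p = 0.00482), from 4.70, 5.32 and 5.01 in WT to 6.00, 5.75 and 5.88 in KO. The peaks at the receptors Ahr, Vdr, Ppara and Esr1 did not pass.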

How the data were processed

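H3K9me3 was measured by ChIP-seq, and only this experiment was analysed here. According to the submitters' processing notes, the authors used Trim Galore 0.6.1, Bowtie2 2.3.2, MACS and edgeR with GRCm38, and peaks were called in SeqMonk on the ChIP libraries together. The labels give single-end and the methods paired-end reads. In the deposited table, the reads of each peak are on a log2 scale, and the authors matched the ChIP libraries to a common distribution, which would remove a change shared by most peaks; the deposited inputs are unscaled log2 counts. A second deposited table, with the authors' own p-values, FDR and fold changes, was not used. Each per-sample column was assigned to 1 sample from its label.

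KO and WT were compared at all 53761 peaks with limma 3.58.1 (R 4.3.3), with a variance prior following the mean level, genotype alone, two-sided p-values and Benjamini-Hochberg adjustment at a threshold of 0.05; the test was tried on simulated data. Reads were recovered from the steps of the values up to 100 reads, for depth and voom. Gene positions came from GENCODE vM21, because the deposited orientation names the side on which the gene lies. The split into peaks overlapping and outside their gene used the deposited assignment. Peaks sharing at least 300 bp at 95% identity were sought with BLAST+ 2.17.0, and promoters were aligned with Biopython 1.88. Python 3.11.15, numpy 2.4.6, pandas 2.3.3 and matplotlib 3.10.9 served for summaries and plots.

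The members and lists were chosen with earlier results of these data known. Peaks were named if past the threshold, highest per kb in WT or most different without overlap in their family, at a gene with 5 or more peaks, or on the list of gut enzymes and transporters, except 1 that is not reported here; further peaks were named for their p or place after their values were seen. Alternatives were another variance prior, a filter at a mean log2 value of 4, centring, quantile normalization, input subtraction, voom, a replicate block, 1 value per gene, only peaks overlapping the gene, and leaving out each library.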

Additional observations from a re-analysis of the deposited data

How the results depend on the processing

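The Aldh1l2 peak kept its direction in all 13 alternatives, with log2 fold changes of -1.27 to -1.06 without 1 library, and it lost the call under a variance prior without a trend (-1.14). The count of lower detoxification peaks, 1, was 0 under that prior (15 at an unadjusted p under 0.05), 4 with peaks averaging below 4 on the log2 scale left out (4.0% of those tested, beside 1.85% of all peaks), 2 with voom on recovered reads, 26 with ChIP minus input and 1 to 3 without 1 library (3 without KO replicate 1 and 3 without KO replicate 3). The count of higher peaks, 0, was 19 with ChIP minus input and 0 to 0 without 1 library. Input subtraction adds the counting error of 1 input library to all 3 libraries of a genotype, outside the spread that limma measures. Over all peaks, the 464 lower and 428 higher calls were 15 and 112 without the trend, 6512 and 9361 with ChIP minus input, and 317 and 256 with voom on recovered reads. Without 1 library they were 199 to 453 lower and 298 to 426 higher, with 244, 199 and 253 lower without WT replicates 1, 2 and 3.

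With the replicate number as a block the replicate block fit called 2 lower detoxification peaks, Aldh1l2 and Abcb4 (1.16%, beside 0.835% of all peaks), and 0 higher. Deviations of libraries of the same number correlated by -0.001, 0.019 and 0.016. With few reads per peak, counting error lowers such correlations, so they cannot show whether the numbers pair the samples.

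The mean difference over the group, -0.14, was -0.04 with ChIP minus input, a step that moved the median of all peaks by 0.09, and -0.17 to -0.10 without 1 library. With ChIP minus input the family means were -0.31 for Cyp, 0.16 for Sult, -0.86 for Aldh, 0.06 for Akr1, 0.39 for Slco and 0.11 for Abc, and with only peaks that overlap the gene -0.07 for Cyp, -0.35 for Aldh and -0.10 for Akr1. Without peaks averaging below 4 they were 0.01 for Sult, -0.35 for Ces, 0.26 for Fmo and -0.19 for Abc, and with 1 value per gene -0.19 for Sult. Without 1 library they ranged from -0.21 to -0.12 for Cyp, -0.44 to -0.25 for Ugt, -0.11 to -0.05 for Sult, -0.11 to 0.26 for Gst, -0.01 to 0.30 for Ces, -0.58 to -0.52 for Aldh, -0.32 to -0.19 for Akr1, -0.46 to 0.03 for Fmo, -0.11 to 0.07 for Slco and -0.14 to -0.03 for Abc. The WT levels per kb with 1 value per gene were 4.04 for Sult and 4.19 for Akr1. Of the 83 other peaks named by the criteria listed above, 18 passed the threshold in at least 1 alternative. Of these, only those at Abcb4, Abcc1 and Cyp8b1 passed in an alternative other than ChIP minus input. The Cyp11b2 peak, named for its p and not among the 83, also passed by limma. Its adjusted p was 0.0422 with the filter at a mean log2 value of 4 and 0.0445 without KO replicate 3. The median library held 17 to 23 reads at a detoxification peak and the median SE of 1 peak was 0.29. How much of that SE is counting error was not tested.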
